A study of Mus musculus with 12 samples.

Results

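The 9 genes described here encode proteins of the myelin sheath or of the mature oligodendrocyte that makes it, namely Mbp, Mobp, Cnp, Mal, Cldn11, Mag, Mog, Opalin and Ermn. They were taken by symbol from a table of 55471 Ensembl gene IDs, each of the 9 symbols matched 1 ID, and all 9 passed the filter on low counts. Poly(A) RNA of ventral CA1, a hippocampal region with inputs from the basolateral amygdala, was sequenced from 12 libraries in 4 groups of 3. The tissue was an area of 1 mm2 dissected around the electrodes in acute slices of wild-type male C57BL/6J mice aged 5 to 7 weeks. Slices of all groups, Control included, had been incubated for at least 3 h, and those of the stimulated groups were frozen 30 min after stimulation. STET_S200 slices received strong tetanization (STET), which is used to induce late long-term potentiation, together with amygdala stimulation at 200 Hz, although a bracketed remark in their labels gives pulses at 100 Hz. STET_S100 slices received STET with amygdala stimulation at 100 Hz. STET slices received 3 trains of 100 pulses at 100 Hz alone, and Control slices received basal stimulation only. Each library pooled 6 slices, and each mouse gave 4 slices, 1 to each group, so that the groups share mice and the spread between libraries is a spread between pools.

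Oligodendrocytes wrap axons in layers of their own membrane, and myelin speeds conduction along the axon and supports its metabolism. In the hippocampus myelin is sparse in the cell layers and denser in the fibre bundles that border them, such as the alveus. Oligodendrocyte precursors, marked by Pdgfra and Cspg4, leave the cell cycle, pass through a newly formed stage marked by Enpp6 and Bcas1, and then switch on the myelin genes under the transcription factors SOX10 and MYRF. Neuronal activity is known to promote this maturation over days.

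Promoter windows were available in RefSeq (build GRCm38.p6) for 8 of the 9 genes, from 250 bases before to 50 bases after the annotated start, in 10 windows because Mag has 3. Because SOX10 is a shared regulator of myelin genes, the windows were searched on both strands for the SOX core letters ACAAT and ACAAAG, and for CTGGNAC, the core of the MYRF motif. The windows of Mobp, Opalin and Cldn11 are shown since they span the range found, and capitals mark the SOX letters on either strand.
Mobp, chr9:120149492-120149791, plus strand: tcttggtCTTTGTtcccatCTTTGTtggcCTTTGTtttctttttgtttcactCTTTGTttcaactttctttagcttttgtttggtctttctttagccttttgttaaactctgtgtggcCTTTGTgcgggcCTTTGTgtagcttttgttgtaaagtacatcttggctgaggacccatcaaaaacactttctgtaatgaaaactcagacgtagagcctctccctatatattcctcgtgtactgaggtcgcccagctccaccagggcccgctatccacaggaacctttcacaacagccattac
Opalin, chr19:41077064-41077363, minus strand: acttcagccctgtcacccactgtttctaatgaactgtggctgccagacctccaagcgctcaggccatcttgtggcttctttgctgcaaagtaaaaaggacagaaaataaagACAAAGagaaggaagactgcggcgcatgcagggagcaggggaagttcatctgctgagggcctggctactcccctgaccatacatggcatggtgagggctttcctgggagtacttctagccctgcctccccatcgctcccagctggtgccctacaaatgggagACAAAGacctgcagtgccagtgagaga
Cldn11, chr3:31149670-31149969, plus strand: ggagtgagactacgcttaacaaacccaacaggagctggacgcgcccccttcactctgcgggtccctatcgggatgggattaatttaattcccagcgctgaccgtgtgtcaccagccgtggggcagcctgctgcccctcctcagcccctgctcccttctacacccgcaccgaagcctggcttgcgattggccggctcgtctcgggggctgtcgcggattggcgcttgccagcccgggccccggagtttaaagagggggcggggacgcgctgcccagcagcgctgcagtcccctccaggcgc
The Mobp window held 6 matches, all of them ACAAAG on the opposite strand, so that they appear as CTTTGT. At least 6 matches of either SOX motif were found in 0.04% of the 32851 windows in the table. The Opalin window held 2, both ACAAAG on the written strand, and the Cldn11 window held 0. Ermn, Cnp and 2 of the 3 Mag windows held 1 match each, while the windows of Mal and Mog held 0. Among all windows, 31.0% held ACAAT, 18.7% held ACAAAG and 42.9% held either, with a mean of 0.63 matches. CTGGNAC was present 2 times in Cnp and in 2 Mag windows, 1 time in Mog and in Opalin, and in 19.3% of all windows. The 2 Mag windows with matches overlap (chr7:30914814-30915113 and chr7:30914873-30915172), so the same letters may be counted in both. TATAAA was in none of the 10 windows, against 13.6% of all. GC content was 43.3% in the Mobp window, 54.3% in the Opalin window and 66.3% in the Cldn11 window, and letters rich in A and T are found more often where GC is low. These matches describe the letters of the windows, and binding was not measured.

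Libraries held 36.3 to 52.8 M counted reads, and the 9 genes together took 0.181 to 0.247% of them. Per degree of freedom, the chi-square between replicate pools over genes was 4.79 to 19.5, above counting error in all 12 pairs. Of the labelled tissue, the 6 listed CA1 pyramidal genes summed to 902 to 1090.0 CPM per library, and 10 genes listed for the neighbouring dentate gyrus and CA3 to 502 to 618.4 CPM. The latter sum came mainly from Chgb (mean 244.6 CPM) and Bcl11b (144.3 CPM). Other genes of that list differed more between libraries, such as Prox1 at 16.5 to 61.4 CPM and C1ql2 at 5.3 to 36.1 CPM. The sum is therefore no measure of how much of these regions a library held. RNA of choroid plexus, the tissue of the ventricle that borders the hippocampus, differed widely between libraries. The summed level of its 12 listed markers was 12.8 to 58.4 CPM (counts scaled to library size) in STET_S200 libraries, 27.4 to 3182.1 CPM in STET_S100, 292.7 to 2523.3 CPM in STET and 224.4 to 1364.5 CPM in Control. Fabp4, a fat-cell and vessel gene used here as a sign of RNA from outside the brain, was at 7.08 to 8.46 CPM in 5 libraries (STET_S200 2 and 3, STET_S100 1, STET 3 and Control 3) and at most 0.275 CPM in the other 7. All 9 genes were detected in every library. Of 8 listed genes of peripheral myelin 4 passed the filter, and their list summed to 88.7 to 97.2 CPM per library, most of it from Drp2 at 63.4 to 72.9 CPM, above the level of Opalin. The Schwann cell gene Pmp2 had 0 reads in all libraries and Prx had 0.69 to 1.36 CPM.

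Scaled per kilobase of annotated exon, Mbp had the highest level of the 9 at 140.4 ± 13.8 CPM per kb (SD, n = 12 libraries over all groups). Cnp followed at 61.4 ± 3.61, Cldn11 at 55.7 ± 6.54, Mal at 49.2 ± 5.9 and Mobp at 41.5 ± 5.7 CPM per kb. The library ranges of each neighbouring pair among these 4 overlapped, Cnp running from 54.6 to 66.2, Cldn11 from 46.3 to 68.9, Mal from 42.2 to 59.7 and Mobp from 33.6 to 51.1 CPM per kb. Compared within each library, however, Cldn11 was above Mal and Mal above Mobp every time. Cnp was above Cldn11 in each library except STET_S200 3, at 66.2 against 68.9 CPM per kb. Mag at 24.1 ± 1.93 and Mog at 19.9 ± 1.97 CPM per kb formed a lower pair with overlapping ranges, although Mag was above Mog within each library. Ermn at 7.94 ± 0.825 and Opalin at 7.52 ± 0.823 CPM per kb were lowest and likewise overlapped. Ermn was above Opalin within each library except STET 1, at 7.59 against 7.66 CPM per kb. The level of Mbp stood clear of Cnp, that of Mobp clear of Mag and that of Mog clear of Ermn in every library. Exon lengths came from GENCODE M21, and the Mbp locus also encodes the golli transcripts, which are made outside myelin and share its exons, so gene-level reads cannot separate them. The order of the other genes also depends on these annotated lengths. Before scaling by length, Mobp had a mean of 284.5 CPM, above Cnp at 223.4, Mal at 136.7 and Cldn11 at 104.2 CPM.

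Mbp, Mobp and their proteins belong to compact myelin: both are small basic proteins on the cytoplasmic face of the membrane, and MBP is required to press its layers together. Mbp was at 1145, 1061.2 and 1389.6 CPM in STET_S200, 1103.8, 1164 and 1096 CPM in STET_S100, 1163, 1368 and 1169.3 CPM in STET, and 1308.5, 1040.5 and 1264.1 CPM in Control libraries 1 to 3. Its highest library was STET_S200 3 and its lowest Control 2, and the ranges of all 4 groups overlapped. Mobp was at 282.5, 235.1 and 349.9 CPM in STET_S200, 265, 269.4 and 259.4 CPM in STET_S100, 279.2, 344.9 and 268.5 CPM in STET, and 317, 229.8 and 312.9 CPM in Control. The same libraries were highest and lowest, and the ratio of 1.52 between them was the largest among the 9 genes. Group means of Mobp were 289.2 ± 57.7 CPM in STET_S200, 264.6 ± 4.99 in STET_S100, 297.5 ± 41.4 in STET and 286.6 ± 49.2 in Control (SD, n = 3 each), so that the means differed by less than the SD within 3 of the 4 groups.

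Cnp encodes a cyclic nucleotide phosphodiesterase that keeps cytoplasmic channels open in non-compact myelin, and Ermn encodes ermin, an actin-binding protein of the mature cell. Cnp was at 223.8, 198.6 and 241 CPM in STET_S200, 218.2, 213.4 and 215 CPM in STET_S100, 228.4, 239.2 and 232.3 CPM in STET, and 232.3, 206.9 and 231.6 CPM in Control. It varied least of the 9 genes, with a ratio of 1.21 between its highest and lowest library, STET_S200 3 and STET_S200 2. Ermn was at 29.7, 27.6 and 30.8 CPM in STET_S200, 25.8, 26.9 and 31.1 CPM in STET_S100, 27.6, 35.2 and 28.4 CPM in STET, and 30.6, 23.4 and 29 CPM in Control. STET 2 was the highest and Control 2 the lowest library for Ermn, and the groups overlapped. Cnp shares 154 exon bases with Dnajc7 on the opposite strand, and how the authors' counting treated strand is not stated in the labels, so reads from that stretch cannot be assigned.

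Cldn11 encodes the claudin of the tight junctions between myelin layers, and Mal a proteolipid that sorts myelin membrane. Cldn11 was at 100.4, 93.5 and 128.8 CPM in STET_S200, 98, 97.9 and 93.3 CPM in STET_S100, 106.4, 121.2 and 101.8 CPM in STET, and 110, 86.6 and 112.5 CPM in Control. Mal was at 135.4, 120.9 and 166 CPM in STET_S200, 125.8, 121 and 124.3 CPM in STET_S100, 139, 160.4 and 131.2 CPM in STET, and 149.8, 117.2 and 149.9 CPM in Control. For both genes every STET_S100 library lay below every STET library, whereas all other pairs of groups overlapped.

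Mag, Mog and Opalin encode membrane proteins at the surfaces of the sheath or of the cell. MAG faces the axon, MOG sits on the outermost layer, and OPALIN is a glycoprotein of the differentiated oligodendrocyte. Mag was at 95.1, 84.6 and 113.4 CPM in STET_S200, 91.7, 100.8 and 93.3 CPM in STET_S100, 98.4, 106 and 98.7 CPM in STET, and 99.2, 90.1 and 105.7 CPM in Control. Mog was at 31.6, 31.4 and 39.3 CPM in STET_S200, 31.1, 33.5 and 31.6 CPM in STET_S100, 33.9, 39.5 and 34 CPM in STET, and 34.5, 28.7 and 37.3 CPM in Control. For Mog, as for Cnp, the STET_S100 libraries lay below the STET libraries without overlap, while for Mag STET_S100 2 lay within the STET range. Opalin was at 24, 21.3 and 20.7 CPM in STET_S200, 19.4, 21.6 and 24.5 CPM in STET_S100, 22.6, 26.6 and 22 CPM in STET, and 24.2, 17.6 and 21.5 CPM in Control. Opalin was the exception in STET_S200 3: that library was the highest for 6 of the genes but was the lowest STET_S200 library for Opalin. Control 2 was the lowest of the 12 libraries for 7 of the 9 genes, and STET_S200 2 was the lowest for Cnp and Mag.

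**Figure D1:**
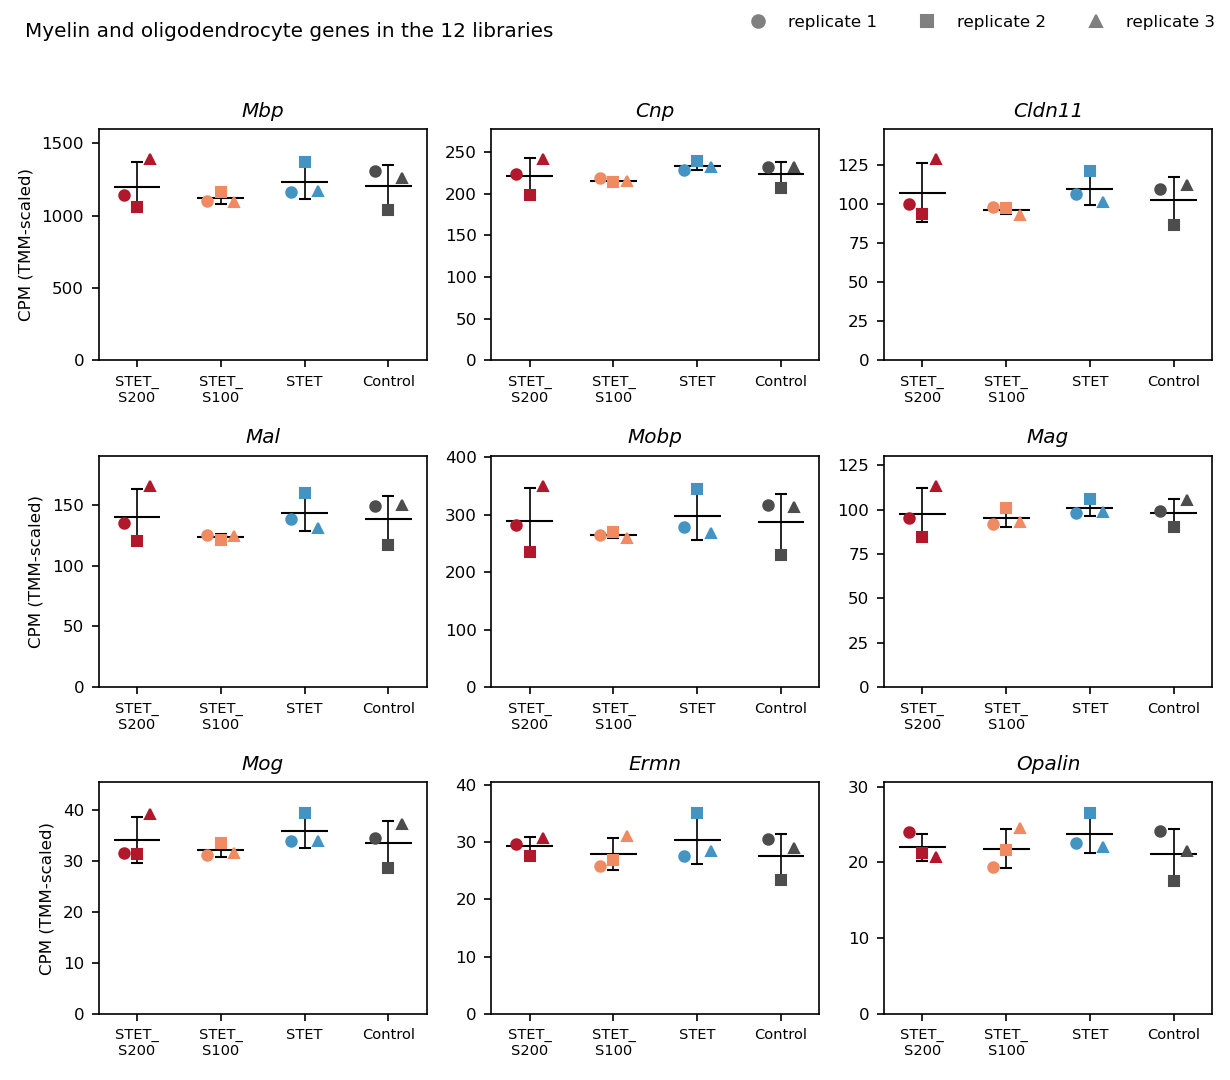
Level of each of the 9 genes in CPM, 1 panel per gene, with 1 point per library, for STET_S200, STET_S100, STET and Control. Points of the 4 groups share their ranges except that for Cnp, Mal, Cldn11 and Mog the 3 STET_S100 libraries lie below the 3 STET libraries.

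None of the 9 genes changed between STET and Control slices by edgeR's quasi-likelihood test with Benjamini-Hochberg adjustment over all 19492 genes tested (adjusted p = 1 for each), and the test called 0% of all genes in that comparison. The log2 fold changes were small and all above 0, from 0.03 ± 0.12 for Mbp to 0.16 ± 0.12 for Opalin (SE), with 0.13 ± 0.11 for Ermn, 0.10 ± 0.10 for Mog, 0.09 ± 0.14 for Cldn11, 0.06 ± 0.06 for Cnp, 0.05 ± 0.13 for Mal, 0.05 ± 0.17 for Mobp and 0.04 ± 0.09 for Mag. Their median was 0.06, against 0.00 over all genes, of which 49.9% were above 0. The direction rested on single libraries. Without Control 2, the library with the lowest myelin levels, the median was -0.02 and 3 of the 9 fold changes were above 0. Without STET 2 the median was 0.01 and 6 were above 0, with Mobp at -0.07, Mbp at -0.05 and Mal at -0.04. The 95% intervals from the fit reached from 0.788 to 1.37 in fold for Mobp, the widest, and from 0.956 to 1.14 for Cnp, the narrowest. Fewer oligodendrocytes in a dissected area and less RNA per oligodendrocyte cannot be told apart in such bulk tissue.

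Between STET_S100 and Control slices the median log2 fold change of the 9 genes was -0.06, 2 were above 0, and none was called (adjusted p 0.922 to 0.997), as for 0% of all genes tested. Mal had the lowest value at -0.17 ± 0.13 and Mobp followed at -0.12 ± 0.17. Mbp and Cldn11 were at -0.10, Mog at -0.06, Cnp and Mag at -0.05, Ermn at 0.01 and Opalin at 0.04. The intervals over the 9 genes ran from 0.701 to 1.23 in fold. Without Control 2, and likewise without STET_S100 3, 0 of the 9 values were above 0, and 4 were above 0 without Control 3. The median was -0.16 without Control 2 and -0.03 without Control 3.

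STET_S200 slices had nearly the Control levels of all 9 genes, where the log2 fold changes had a median of 0.02 and 6 lay above 0. Values ran from -0.02 ± 0.06 for Cnp to 0.08 ± 0.11 for Ermn, with Mbp and Mag at -0.01, Mobp at 0.01, Mal and Mog at 0.02, and Cldn11 and Opalin at 0.06. None was called (adjusted p 0.941 to 0.994), nor was any gene of the table (0%). The intervals ran from 0.765 to 1.33 in fold. The direction turned with single libraries: 0 of the 9 values were above 0 without Control 2, 2 without STET_S200 3, and 9 without Control 3 or without STET_S200 2. In these slices choroid plexus RNA stood apart from Control, as given above, and with a choroid plexus score in the fit the log2 fold changes became 0.03 for Mag, 0.04 for Mbp and -0.07 for Opalin.

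In all 3 comparisons with Control, 0 of the 9 genes had an unadjusted p under 0.05 by the edgeR test. Of all genes tested, 683 (3.5%) had one in STET, 1006 (5.16%) in STET_S100 and 1154 (5.92%) in STET_S200. With shares of that size, a count of 0 does not set the 9 genes apart. DESeq2 and limma-voom also called 0 of the 9. In none of the 3 did any of the 9 genes separate the groups: all STET_S200 libraries lay above or below all Control libraries for 5.73% and 5.28% of the tested genes, all STET_S100 libraries for 5.19% and 4.93%, and all STET libraries for 4.69% and 4.2%. The 3 comparisons share the Control libraries, so that a low Control library moves all of them together.

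STET_S100 slices had the lowest group mean for 7 of the 9 genes, the exceptions being Ermn and Opalin, with differences within the spread of the fit. Against STET slices, which had the same tetanization without the amygdala input, all 9 log2 fold changes were below 0, with a median of -0.14, from -0.21 ± 0.13 for Mal to -0.09 ± 0.09 for Mag. None was called (adjusted p = 1 for each, 0% of all genes), and 0 of the 9 had an unadjusted p under 0.05, against 615 genes (3.16%) in the table. Cnp had an unadjusted p of 0.0715 with a log2 fold change of -0.11 ± 0.06. Cnp, Mal, Cldn11 and Mog, which are named for their separation, had all 3 STET_S100 libraries below all 3 STET libraries, against 4.87% of all tested genes in that direction, and 0 of the 9 lay wholly above, against 4.73%. The number ran from 4 to 7 when 1 library was left out, and the 7 without STET_S100 2 stood against 9.73% of all genes. It was 6 in the 7 libraries with Fabp4 at or below 1 CPM, against 15.1% of all genes. That setting held only STET 1 and 2 and STET_S100 2 and 3 for this comparison. None of the 9 fold changes turned above 0 under the alternatives that were fitted, but their size rested partly on STET 2: without it the median was -0.06, with Mobp at -0.05 and Ermn at 0.00. The genes are strongly correlated with each other, as given below, so the 4 are not 4 separate observations. The intervals ran from 0.676 to 1.17 in fold over the 9 genes, and that for Mal ran from 0.698 to 1.06. Several lists of markers of other cells also leaned one way in the same comparison, where 51.9% of all genes were above 0. The neuron list did not, with 6 of 12 genes above 0 (median 0.00). Above 0 were 2 of 9 endothelial genes (median -0.05) and 1 of 6 CA1 pyramidal genes (median -0.07). All 12 choroid plexus genes were above 0 (median 0.72), with the summed levels given above, and 3 of 13 microglia genes were (median -0.09), with summed levels of 290.6 to 335.4 CPM in STET_S100 and 309.3 to 338.4 CPM in STET. Further, 0 of 12 astrocyte genes were above 0 (median -0.06), with summed levels of 7391.1 to 8103.4 CPM in STET_S100 and 7962.6 to 8507.9 CPM in STET, and 10 of 10 dentate and CA3 genes were above 0 (median 0.21), with summed levels of 578.9 to 605.4 CPM in STET_S100 and 511.6 to 601.7 CPM in STET. None of these genes was called, and their part in the myelin values was not tested. Within STET_S100 the 3 pools were close, with a SD of 2.44 CPM around 123.7 CPM for Mal, against 15.2 CPM around 143.5 CPM in STET.

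STET_S200 slices lay between these groups in the fit. Against STET, all 9 log2 fold changes were below 0, with a median of -0.05, the lowest for Opalin at -0.11 ± 0.12 and the highest for Mal at -0.03 ± 0.13. None was called, as for 0% of all genes, and 0 of the 9 had an unadjusted p under 0.05, against 888 genes (4.56%) in the table. The values were above 0 for 6 of the 9 without STET 2 and for 5 without STET_S200 2. Against STET_S100, all 9 values were above 0, with a median of 0.09, the highest for Mal at 0.18 ± 0.13 and the lowest for Opalin at 0.01 ± 0.12. None was called there either, as for 0% of all genes, and 0 of the 9 had an unadjusted p under 0.05, against 1014 genes (5.2%). Without STET_S200 3, 4 of the 9 values were above 0. No gene of the 9 separated STET_S200 from STET, where 6.22% of all genes lay above and 5.76% below, or from STET_S100, where 4.57% lay above and 4.77% below. The intervals ran from 0.738 to 1.28 in fold against STET and from 0.829 to 1.44 against STET_S100.

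**Figure D2:**
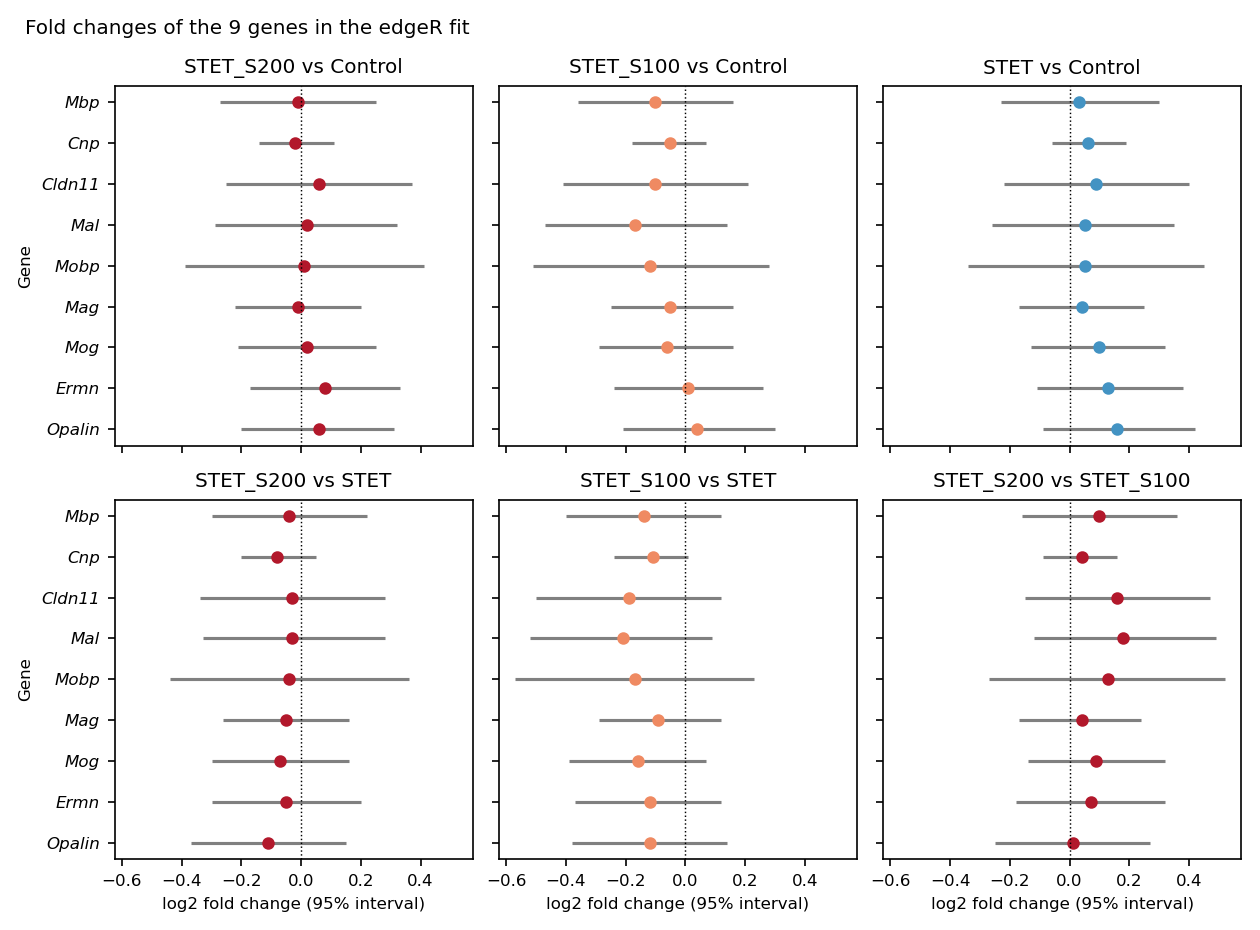
Log2 fold change of each of the 9 genes in the 6 comparisons, with 95% intervals from the edgeR fit over 12 libraries. All intervals span 0, and the values lie below 0 for all 9 genes in STET_S100 against STET, with a median of -0.14.

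The 9 genes varied together from library to library, within groups as well as between them. Over the 12 libraries the 36 pairs of log2 CPM had a median Pearson r of 0.879 (0.292 to 0.98) and a median Spearman rho of 0.846. With group means removed the median r was 0.884, and without STET 2 and Control 2, the 2 libraries farthest from the median in the mean of the 9 genes, it was 0.832, with pairs from -0.189 to 0.97, so that not every pair varied together without them. These values describe the libraries, which share slices of the same mice, and carry no test. Mbp and Mobp were the closest pair, with r = 0.98, and the log2 difference of Mobp minus Mbp stayed between -2.18 and -1.99. Between groups lay 7.88% (Mag) to 25.6% (Cnp) of the variance of each gene, against a median of 25.3% over all genes. In STET_S200 alone, log2 CPM relative to the mean of all libraries ran for Mobp from -0.26 in library 2 to 0.31 in library 3, a wider span than any log2 fold change of Mobp between groups.

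**Figure D3:**
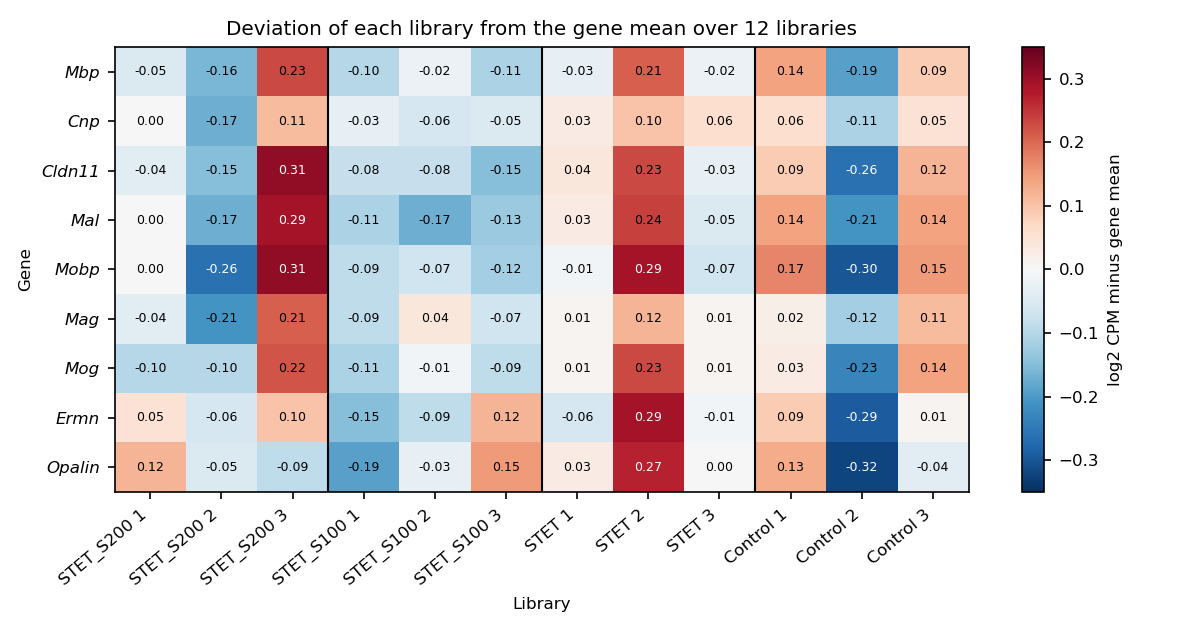
Log2 CPM of each of the 9 genes minus its mean over the 12 libraries, with genes down and libraries across in the order STET_S200, STET_S100, STET and Control. STET_S200 3 and STET 2 are above 0 and Control 2 is below 0 for nearly all genes, as for Cldn11 with 0.31, 0.23 and -0.26.

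Opalin and Ermn, the genes with the lowest level per kb, followed the other genes least. The r of Opalin with the mean of the other 8 was 0.53 and that of Ermn 0.803, against 0.96 for Mbp and 0.97 for Mobp. Pairs with Opalin had a median r of 0.459, and pairs without it 0.894, but Opalin and Ermn had r = 0.882 with each other. Both were above their means in STET_S100 3, Opalin by 0.15 and Ermn by 0.12 on the log2 scale, where the other 7 were below theirs. The log2 difference of Opalin minus Mbp ran from -6.07 in STET_S200 3 to -5.48 in STET_S100 3.

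Genes outside the 9 whose levels were most like their mean included genes of glial membranes and myelin lipid. Among genes with a mean log2 CPM of at least 3, the 10 highest included the glial connexin gene Gjc3 (r = 0.897), Prr18 (0.885), Ugt8a (0.865), Arhgef10 (0.849), Tmem88b (0.846), Chsy3 (0.834), 1500009L16Rik (0.83), Nucb2 (0.828) and Cntn2 (0.827). The likeness of the 10439 other genes had a median r of -0.0244, with 90% between -0.501 and 0.489.

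Of 27 other tested genes of the myelin membrane 10 had an r above 0.5 with the mean of the 9 genes. Among 14 genes of myelin lipid synthesis 5 did, among them Ugt8a, which makes galactosylceramide (0.865), the glycolipid transfer gene Gltp (0.797) and the fatty acid hydroxylase gene Fa2h (0.794). Enpp2 of the same list, at 78.5 to 1104.7 CPM, is also a choroid plexus gene. Among 11 transcription factor genes of the lineage 2 did: Myrf, the driver of myelin gene expression, had 0.779 and Nkx6-2 had 0.586, while Sox10 had -0.17, Olig1 -0.0617 and Olig2 -0.361. The precursor markers did not follow: Pdgfra, a receptor of precursors, had -0.214 and Cspg4 -0.169. The markers of the newly formed stage differed, with 0.8 for Bcas1, which was counted in the myelin membrane list, 0.667 for Enpp6 and -0.126 for Gpr17. Of the 20 genes listed for precursors and newly formed cells 2 exceeded 0.5, Enpp6 and 9630013A20Rik (0.591). Pdgfra was at 93.2, 86 and 89.7 CPM in STET_S200, 93.1, 84.6 and 93.9 CPM in STET_S100, 90.9, 92.1 and 97.9 CPM in STET, and 94.3, 100.7 and 87.3 CPM in Control, where Control 2, the lowest library for myelin genes, was the highest. Myrf was at 37.6, 36.4 and 41.8 CPM in STET_S200, 36.7, 35.5 and 40.8 CPM in STET_S100, 37.3, 45 and 39.1 CPM in STET, and 37.5, 36.3 and 41.8 CPM in Control, with STET 2 highest. Of 18 signalling genes 5 exceeded 0.5 and of 22 cholesterol synthesis genes 1. In the other direction, r was below -0.5 for Mvd of cholesterol synthesis (-0.706), C1ql1 of the precursor list (-0.553) and Zfp488 of the lineage factors (-0.504).

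Few markers of other cells rose and fell with the 9 genes, as few genes of the table did, and 2 lists leaned the other way. The median r was -0.304 for astrocyte genes (-0.497 to -0.0168) and -0.343 for dentate and CA3 genes, against -0.0244 over all genes. For the means of these lists r was -0.357 and -0.468. Without the 2 libraries farthest from the median in the mean of the 9 genes it was 0.21 and -0.0759. Among the markers of other cells, an r below -0.5 was found for 1 neuronal gene (Camk2a, -0.59) and 1 dentate and CA3 gene (Iyd, -0.602). An r above 0.5 was found for 0 of 12 astrocyte, 0 of 13 microglia, 0 of 9 endothelial and 0 of 12 choroid plexus genes, for 1 of 12 neuronal genes (Tubb3, 0.693), for 1 of 6 CA1 pyramidal genes and for 0 of 10 dentate and CA3 genes. Over the 10439 other genes with a mean log2 CPM of at least 3, the 95th percentile of r was 0.489. Counts near 0 therefore do not set these lists apart. The r of the mean of the 9 genes with the choroid plexus score was -0.0412, with log2 Fabp4 0.068 and with the total count -0.0667. How much white matter each dissected area held is not in the labels, and its part in these levels was not tested.

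**Figure D4:**
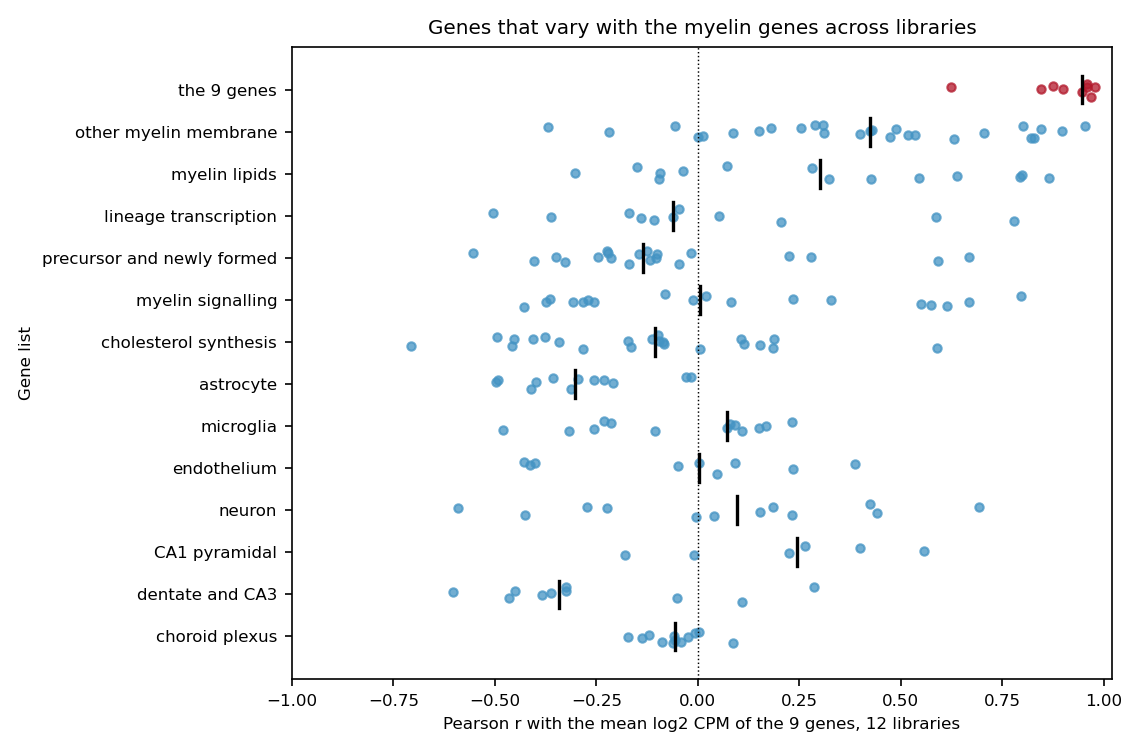
Pearson r over the 12 libraries between the log2 CPM of each listed gene and the mean log2 CPM of the 9 myelin genes, 1 row per list and 1 point per gene. Points of the myelin membrane and lipid lists reach above 0.8, while all astrocyte, microglia, endothelial and choroid plexus genes lie below 0.5, as do most of the 10439 other genes compared.

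No gene of these pathway lists was called in any comparison, as for 0% of all genes. In STET against Control, 19 of 27 myelin membrane genes had a log2 fold change above 0 (median 0.04), against 49.9% of all genes. They were led by Hapln2, a link protein at nodes of Ranvier, at 0.24 ± 0.14, with Tmem88b at 0.12 and Gjc3 at 0.10. Of 14 myelin lipid genes 12 were above 0 (median 0.08), with Aspa, which breaks down N-acetylaspartate, at 0.16, Gltp at 0.09 and the ceramide synthase gene Cers2 at 0.08. Whether the direction of these lists rested on single libraries, as it did for the 9 genes, was not tested. Lineage transcription factors stood at a median of 0.00 with 6 of 11 above 0, Sox10 at 0.09, Sox8 at -0.12 and Zfp488 at -0.15. Genes of precursors and newly formed cells had a median of -0.02 with 8 of 20 above 0, Rras2 at 0.19, Tmem163 at -0.19 and Vcan at -0.09. Signalling genes had a median of -0.01 with 8 of 18 above 0, Gpr37 at 0.08, Erbb3 at -0.14 and Adgrg1 at -0.05, and cholesterol synthesis genes a median of 0.02 with 12 of 22 above 0, with Srebf2 at -0.07 and Cyp51 at -0.08. Each of these genes had an adjusted p of 1 by the edgeR test. In STET_S100 against STET, 9 of 27 myelin membrane genes were above 0 (median -0.03), and 6 of 20 precursor and newly formed genes (median -0.06), including Enpp6 at -0.38 ± 0.17 with an adjusted p of 1.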

How the data were processed

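The deposited values were raw read counts per Ensembl gene ID, which were whole numbers with no scaling, in 1 column per sample. Per the submitters' processing notes the authors used HTSeq 0.11.2 with STAR 2.7.1a, Trimmomatic 0.39, limma and R 4.0.2, and libraries were directional with paired reads of 150 bp. For the settings, genome build, annotation and strand option of the counting, the entry is: not given in the sources used here. Of 55471 IDs, 55144 were paired with a symbol. Exon lengths came from GENCODE M21, in which 55230 IDs (99.6%) were found.

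Genes were kept by filterByExpr (minimum count 10, minimum total 15), scaled by TMM and tested with edgeR 4.0.16 (quasi-likelihood F test, robust) in R 4.3.3, in 1 fit of 12 libraries with 6 comparisons. P-values were adjusted by Benjamini-Hochberg over 19492 genes, with a threshold of 0.05. The biological coefficient of variation was 8.25%. Log2 CPM used a prior count of 2. Libraries held 36.3 to 52.8 M reads, which are not independent molecules. P-values measure only the spread between these pools. The script was tested on simulated data.

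The members and lists were chosen with earlier results of these data known. All 9 genes are named in comparisons with Control, the highest and lowest of the 9 between stimulated groups, up to 3 genes of each list by smallest p in STET against Control, and the 10 genes most alike; other genes named were chosen after their values were seen, and some results under this rule are not reported here. Alternatives were RLE and upper quartile scaling, no filter, DESeq2 1.42.0, limma-voom (limma 3.58.1), non-robust dispersion, compared groups alone, a choroid plexus covariate, libraries with Fabp4 at or below 1 CPM, a replicate block and leaving out each library. Counts of genes above 0 and of genes without overlap were followed under the alternatives only after the data had been seen. Figures used Python 3.11.15 and matplotlib 3.10.9.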

Additional observations from a re-analysis of the deposited data

How the results depend on the processing

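None of the 9 genes was called in any comparison under any alternative (0 of 864 fits, smallest adjusted p 0.734 over edgeR, DESeq2 and limma-voom). Genes called in the whole table, in the order STET, STET_S100 and STET_S200 against Control, STET_S100 and STET_S200 against STET and STET_S200 against STET_S100, were 16, 42, 69, 22, 34 and 98 without a filter on low counts and 1, 3, 4, 1, 16 and 5 by DESeq2, against 0 in each. Fitting the compared groups alone called 1 in STET_S100 against Control. Leaving out 1 library gave 0 to 2 in STET_S200 against Control and 0 to 8 in STET_S200 against STET_S100. Whether libraries of 1 number share mice is not in the labels. Deviations from the group means correlated at -0.359 to 0.482 between same-numbered libraries, which falls short of pairing them, although 7 of 12 libraries correlated best with their own number, a hint from the data and not the design. A replicate block called 0 genes and changed no sign.

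Signs followed single libraries. Over 40 fold changes, 21 changed sign when some library was left out. The number of the 9 genes above 0 ran from 3 to 9 in STET, 0 to 4 in STET_S100 and 0 to 9 in STET_S200 against Control, 0 to 6 in STET_S200 against STET and 4 to 9 in STET_S200 against STET_S100; those without overlap in STET_S100 against STET numbered 4 to 7. With a choroid plexus covariate 4 were above 0 in STET_S200 against STET, and in libraries with Fabp4 at or below 1 CPM 4 were in STET_S100 against Control.

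In STET against Control, leaving out 1 library gave log2 fold changes of -0.06 to 0.11 for Mal, -0.08 to 0.13 for Mobp, -0.02 to 0.09 for Mag, -0.02 to 0.16 for Cldn11, -0.06 to 0.10 for Mbp and 0.00 to 0.18 for Mog. In STET_S100 against Control it gave -0.09 to 0.09 for Ermn, -0.10 to 0.01 for Mag, -0.07 to 0.16 for Opalin and -0.16 to 0.02 for Mog. In STET_S200 against Control it gave -0.08 to 0.06 for Cnp, -0.02 to 0.16 for Ermn, -0.12 to 0.12 for Mal, -0.15 to 0.14 for Mobp, -0.13 to 0.08 for Mag, -0.09 to 0.15 for Cldn11, -0.13 to 0.07 for Mbp, -0.06 to 0.17 for Opalin and -0.09 to 0.10 for Mog. It gave -0.16 to 0.07 for Mal in STET_S200 against STET and -0.07 to 0.10 for Opalin in STET_S200 against STET_S100. With the choroid plexus covariate, STET_S200 against Control was 0.03 for Mag, 0.04 for Mbp and -0.07 for Opalin, and STET_S200 against STET_S100 was -0.13 for Opalin. In libraries with Fabp4 at or below 1 CPM, STET_S100 against Control was 0.03 for Mag and 0.04 for Mog, and STET_S200 against Control was 0.03 for Cnp, 0.00 for Mag and -0.01 for Mog. STET_S200 1 was the only STET_S200 library in that setting, so the STET_S200 values there rest on 1 library. By limma-voom, Mobp in STET_S200 against Control was 0.00. The cause of these changes was not tested. With 3 pools a group, the 95% intervals of Mobp, the widest, reached 0.676 and 1.44 in fold, while those of Cnp were narrower, as 0.847 to 1.01 in STET_S100 against STET, so what could be detected differed between the genes.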
